A study of Mus musculus with 6 samples.

Results

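The NF-kB, Toll-like receptor and inflammasome genes described here are a set of 43 mouse genes, chosen by name: NF-kB subunits, the IkB proteins that bind them, proteins of the tumor necrosis factor (TNF) receptor arm and its feedback, Toll-like receptors with their co-receptors, the adaptors and kinases behind them, NOD receptors and RIP kinases, and parts of the inflammasome. Their probes were found by the gene name of the array's design or by the current symbol of the probe's accession. All 43 were on the array, with 62 of its 55681 probes, among 34741 genes and unnamed transcripts. Of these 43 genes, 36 were bright enough to be tested, among 18545 genes tested in all.

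Gene expression was measured in total RNA of 3 normal livers and 3 liver tumors, each on an Agilent 1-colour array. All 6 samples came from male C3H/HeN mice, a substrain without the Tlr4 mutation of C3H/HeJ. By the methods the animals were F2 pups from the control arm of a gestational arsenic project, fed a standard diet with tap water, and the labels give an age of 74 to 75 weeks. The tumors had arisen without treatment, were macroscopic and carried a Ha-ras mutation. The labels do not say whether a tumor and a normal liver with the same number came from the same mouse, or that each sample is a separate animal, so the p-values measure the spread between these samples. The samples are pieces of bulk tissue, in which fewer cells of a type and less RNA per cell cannot be told apart. The normal livers lay on one slide and the tumors on another, so that slide and tissue cannot be told apart.

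NF-kB is a family of transcription factors that wait in the cytoplasm, bound by IkB proteins or held in a precursor. Toll-like receptors on the cell surface and in endosomes sense microbial products, and through Myd88 and the Irak kinases, or through Ticam1, they free NF-kB to enter the nucleus. A slower, non-canonical route processes the Nfkb2 precursor and releases its pair with Relb. Inflammasomes are cytoplasmic complexes that activate inflammatory caspases, and in liver Kupffer cells carry much of this machinery, with hepatocytes and endothelial cells holding parts of it.

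Expression values below are the processed signal of a probe divided by the 75th percentile of its array, on a linear scale. A gene "at background" had no array of the group or groups named well above it. The values compare one gene across arrays, not one gene with another, since each probe has its own brightness. Feature Extraction marked 44.7% to 48.9% of an array's spots as well above background and none as saturated. Local background had a median of 42 to 45 on the normal livers' slide and of 22 to 23 on the tumors' slide. Pearson correlations of log2 values were 0.989 to 0.992 among normal livers, 0.980 to 0.990 among tumors and 0.914 to 0.950 between the groups. The expression value of Alb, the main plasma protein of hepatocytes, was 1923 to 2449 in normal liver and 2123 to 2221 in tumor. Alb shows hepatocyte RNA in both groups and does not tell tumor from normal liver. Of 10 hepatocyte markers 1 rose (10%) and 5 fell (50%), against 13.1% and 21% of all genes tested. Hpd fell most, with 230 to 275 in normal liver and 29.5 to 77.9 in tumor.

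Of the 36 genes tested, 9 were higher and 4 were lower in liver tumor by limma with an adjusted p under 0.05. Over all 18545 genes tested, 13.1% were called higher and 21% lower, 34.1% in either direction, against 25% and 11.1% of the 36. The 9 higher were Nfkb2, Relb, Tnip1, Traf1, Tlr1, Tlr6, Cd14, Ly96 and Casp4, and the 4 lower were Tlr5, Tlr7, Tlr9 and Irak1. The groups did not overlap for 19 of the 36, or 52.8%, close to the 51.8% of all genes tested. The median log2 fold change (tumor minus normal) was 0.16 over the 36 and -0.13 over all genes tested, of which 38.1% lay above 0, while 20 of the 36 did. Scaling by the spike-in controls in place of the 75th percentile moved the median over all probes by 0.18, and under it Tlr7, Tlr9, Irak1 and Ly96 were no longer called while Tlr2 and Casp1 became called higher. Tlr1, Tlr5, Traf1 and Irak4 passed the filter on dim probes through the group in which they were brighter. With no filter Tlr1 and Tlr5 were still called and Traf1 was not.

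**Figure D1:**
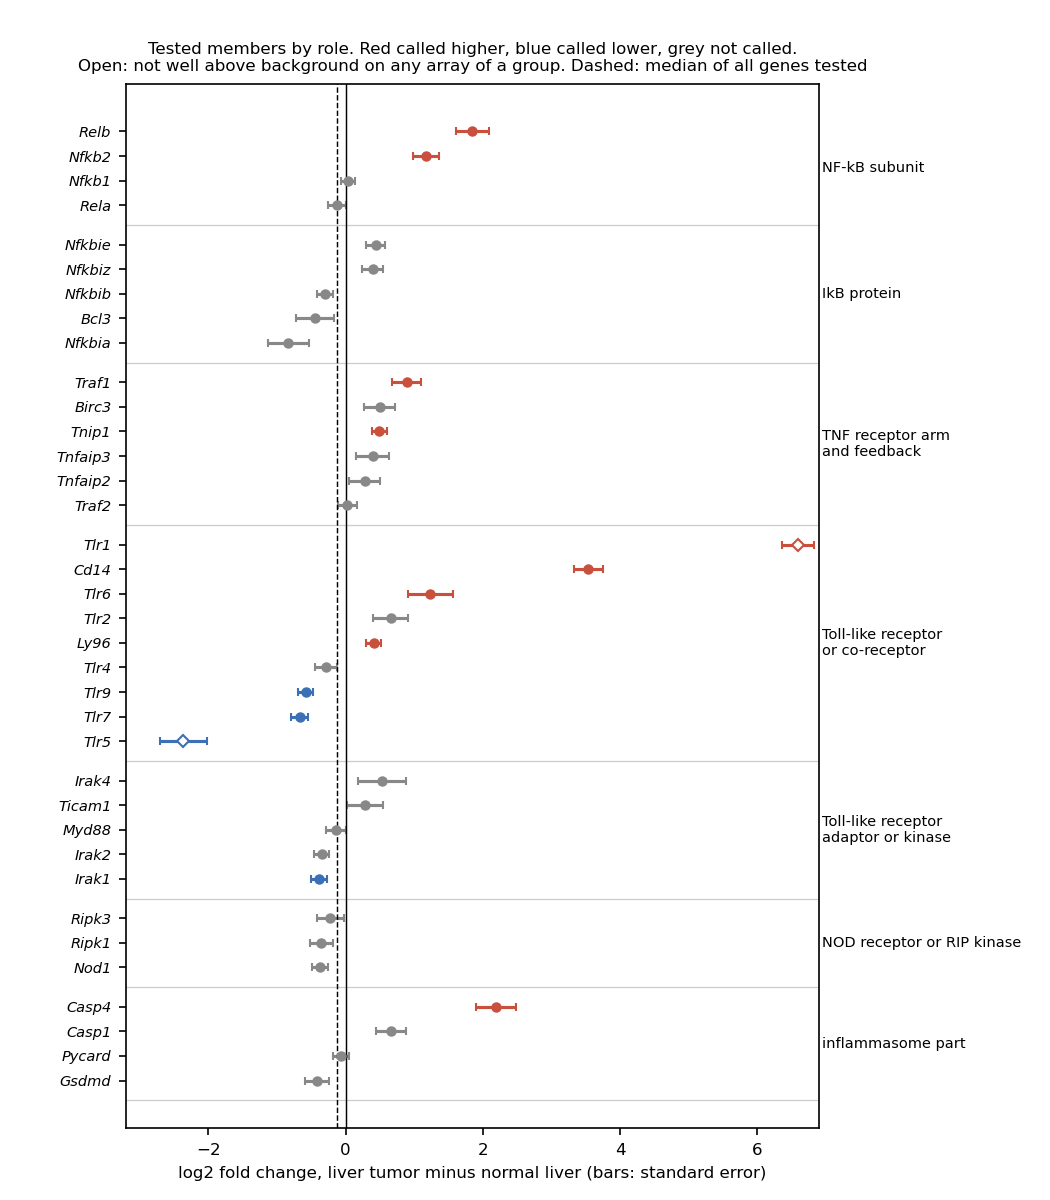
Log2 fold change (liver tumor minus normal liver, horizontal axis, bars of 1 standard error) of the 36 tested genes, grouped by role; red points were called higher, blue lower and grey not called, and open diamonds mark a group with no array well above background. The dashed line is the median of all genes tested, -0.13, and the 9 red points lie from 0.41 (Ly96) to the fitted 6.60 of Tlr1.

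Of the 5 NF-kB subunits, the non-canonical pair Nfkb2 and Relb rose, Rela and Nfkb1 did not pass the test and Rel was too dim to test. The risers were 50% of the 4 tested, against 13.1% of all genes tested. Nfkb2 encodes p100, the precursor of p52. Its expression value was 0.928, 0.860 and 0.906 in the normal livers and 2.69, 1.71 and 1.81 in the tumors. Every tumor lay above every normal liver, with tumor 1 the highest, and the means were 0.898 ± 0.0347 and 2.07 ± 0.543 (SD, n = 3 each). It rose 2.26-fold, a log2 fold change of 1.17 with a standard error of 0.19 (limma, adjusted p = 0.00609). Relb, which pairs with p52, had 0.430, 0.313 and 0.537 in normal liver against 1.91, 1.35 and 1.30 in tumor. Its groups did not overlap either, and tumor 1 was again the highest. The log2 fold change was 1.85 with a standard error of 0.24 (adjusted p = 0.00326), or 3.60-fold.

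Relb has 3 tested probes, and they did not move alike. A second probe rose by 1.82 on the log2 scale (adjusted p = 0.00169). The third had a mean of 0.504 ± 0.0837 in normal liver and 0.368 ± 0.0351 in tumor (SD, n = 3 each), a log2 fold change of -0.45 that was not called (adjusted p = 0.0671). What separates the transcripts under these probes was not tested.

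Rela, the activating subunit p65 of the canonical route, had 51.3, 50.1 and 62.4 in normal liver and 50.2, 46.1 and 53.6 in tumor. Nfkb1, the precursor of p50, stayed between 0.731 and 0.806 on all 6 arrays. Log2 fold changes were -0.12 for Rela (adjusted p = 0.509), which turned above 0 under spike-in scaling and quantile normalization, and 0.04 for Nfkb1 (adjusted p = 0.793), which turned below 0 after normexp. Both groups overlapped for each of these genes. Rel, the subunit best known from lymphocytes, stayed at background on every array and was not tested.

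The promoter of Nfkb2 is shown because its gene rose and because the window holds more than 1 match to the kappaB consensus, the 10-base sequence that NF-kB dimers bind. The 250 bases before an annotated start, at chr19:46304487-46304736 on the plus strand of GRCm38.p6, are given 5′ to 3′ with the matches in capitals.
Nfkb2: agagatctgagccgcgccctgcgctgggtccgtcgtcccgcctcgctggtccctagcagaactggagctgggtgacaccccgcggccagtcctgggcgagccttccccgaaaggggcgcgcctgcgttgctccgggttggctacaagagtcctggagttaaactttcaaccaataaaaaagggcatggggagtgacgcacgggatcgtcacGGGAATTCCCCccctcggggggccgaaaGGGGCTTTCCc
The first stretch in capitals begins 39 bases before the start and holds overlapping matches on both strands, and the second begins 11 bases before it.

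None of the 5 IkB proteins was called in either direction, while 34.1% of all genes tested were. Nfkbia encodes IkB-alpha, the inhibitor that NF-kB itself induces. Its expression value was 12.8, 25.2 and 26.7 in normal liver and 10.3, 11.0 and 13.3 in tumor. Normal liver 1 stood near the tumors and below tumor 3, so that the groups overlapped. Its log2 fold change of -0.84 (standard error 0.30) was not called (adjusted p = 0.0723). Without normal liver 1 it was called at -1.18 (adjusted p = 0.00998).

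Nfkbie, which encodes IkB-epsilon, had 1.47, 1.39 and 1.34 in normal liver against 2.22, 1.64 and 1.88 in tumor. These groups did not overlap, but the log2 fold change of 0.44 just missed the threshold (adjusted p = 0.0529). Nfkbib, IkB-beta, also had separate groups, with 9.79 to 10.6 in normal liver and 7.56 to 9.16 in tumor and a log2 fold change of -0.30 (adjusted p = 0.0935). Another of its 3 tested probes rose instead, by 0.73 on the log2 scale (adjusted p = 0.0460). That probe was dim, with 0.160 to 0.217 in normal liver. The remaining probe gave -0.24 and was not called (adjusted p = 0.182). The atypical nuclear members Nfkbiz and Bcl3, which act on transcription in the nucleus, had log2 fold changes of 0.40 (adjusted p = 0.0928) and -0.45 (adjusted p = 0.262).

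The promoter of Nfkbia is shown as that of a gene which was not called although its window holds a match. It lies at chr12:55492648-55492897 on the minus strand of GRCm38.p6.
Nfkbia: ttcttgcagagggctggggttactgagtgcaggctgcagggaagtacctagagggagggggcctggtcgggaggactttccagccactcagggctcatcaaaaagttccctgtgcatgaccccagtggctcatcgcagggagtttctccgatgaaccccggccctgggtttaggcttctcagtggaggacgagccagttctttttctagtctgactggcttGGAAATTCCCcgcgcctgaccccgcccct
The stretch in capitals begins 29 bases before the start.

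In the TNF receptor arm, 2 of 6 genes rose (33.3%, against 13.1% of all genes tested), Tnip1 and Traf1. All 6 log2 fold changes lay above 0, from 0.03 to 0.89, as did 38.1% of those of all genes tested. Tnip1 encodes ABIN1, a ubiquitin-binding partner of A20 that limits NF-kB signaling. Its expression value was 11.0, 11.1 and 10.4 in normal liver and 15.7, 13.9 and 16.0 in tumor. The groups did not overlap, and the spread within each was small beside the gap. Its log2 fold change was 0.49 with a standard error of 0.11 (limma, adjusted p = 0.0175), and a second probe gave 0.56 (adjusted p = 0.0158). The call was lost without normal liver 2 or normal liver 3, with adjusted p up to 0.0557.

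Traf1, an adaptor of TNF family receptors, had 0.116, 0.104 and 0.153 in normal liver and 0.259, 0.250 and 0.181 in tumor. It was well above background in all 3 tumors but in only 1 normal liver, and the lowest tumor lay not far above the highest normal liver. The log2 fold change was 0.89 (adjusted p = 0.0199), which was not called with normal liver 1 or 2 or tumor 1 or 2 left out, nor after normexp background correction, where it was 0.17.

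The other 4 did not pass the test. Tnfaip3, which encodes A20, the ubiquitin-editing brake on NF-kB, had 0.617 to 0.680 in normal liver and 0.586 to 1.11 in tumor (log2 fold change 0.39, adjusted p = 0.242). Tumor 1 was the highest and tumor 2 lay below every normal liver. Birc3, a ubiquitin ligase of the TNF receptor complex, was 0.355 to 0.644 against 0.647 to 0.737 (0.50, adjusted p = 0.131). The TNF-induced gene Tnfaip2 gave 0.28 (adjusted p = 0.394) and the adaptor Traf2 gave 0.03 (adjusted p = 0.906).

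The promoter of Tnip1, which rose on both probes, is shown from chr11:54962941-54963190 on the minus strand of GRCm38.p6.
Tnip1: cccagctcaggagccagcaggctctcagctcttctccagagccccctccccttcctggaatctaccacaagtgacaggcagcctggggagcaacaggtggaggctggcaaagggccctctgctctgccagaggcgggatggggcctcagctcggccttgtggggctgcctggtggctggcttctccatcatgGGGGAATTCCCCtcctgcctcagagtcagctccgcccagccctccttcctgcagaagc
The capitals begin 58 bases before the start and cover overlapping matches on both strands.

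Receptors moved in both directions. Of 11 Toll-like receptors and co-receptors, 9 were tested, 4 were called higher (44.4%) and 3 lower (33.3%), against 13.1% and 21% of all genes tested. The 4 were Tlr1, Tlr6 and the lipopolysaccharide co-receptors Cd14 and Ly96. The 3 were Tlr5, which binds flagellin, and the endosomal nucleic acid sensors Tlr7 and Tlr9.

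Cd14, which hands lipopolysaccharide to Tlr4, had 0.810, 0.753 and 1.10 in normal liver and 12.7, 8.35 and 9.93 in tumor. The lowest tumor was far above the highest normal liver. The means were 0.887 ± 0.186 and 10.3 ± 2.18 (SD, n = 3 each), the log2 fold change was 3.54 with a standard error of 0.21 (limma, adjusted p = 0.000213), and the rise was 11.6-fold.

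Ly96, or MD-2, which holds lipopolysaccharide against Tlr4, rose by far less. It had 1.34, 1.44 and 1.47 in normal liver and 1.80, 1.78 and 2.08 in tumor, with a log2 fold change of 0.41 (adjusted p = 0.0356). The call was lost with any single array left out, with adjusted p from 0.0592 to 0.0949. Tlr4 itself, the signaling receptor, had 0.161 to 0.213 in normal liver and 0.148 to 0.182 in tumor. Its groups overlapped and the log2 fold change was -0.28 (adjusted p = 0.225). Signal for Tlr4 was near background: it was well above it in only 2 normal livers, and another probe stayed at background on every array.

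Tlr1 and Tlr6, which both pair with Tlr2 to bind bacterial lipopeptides, are neighbours at chr5:64924680-64933600 and chr5:64953092-64970942 in GRCm38.p6. Tlr1 had 0.0348, 0.0284 and 0.0251 in normal liver, at background throughout, and 3.66, 2.10 and 2.91 in tumor. Measured means were 0.0294 ± 0.00493 and 2.89 ± 0.783 (SD, n = 3 each). By the processed signal Tlr1 was at least 21.7-fold higher in tumor, or 4.44 on the log2 scale. This bound sets the tumor mean against the lowest signal that counted as well above background on the normal arrays. The limma fit to the measured values called Tlr1 higher (adjusted p = 3.49e-05). After normexp its log2 fold change was 3.04, below the bound.

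Tlr6 had 0.561, 0.380 and 0.404 in normal liver and 0.636, 1.31 and 1.35 in tumor. Tumor 1 lay just above normal liver 1 and well below the other tumors, the reverse of its place for Tlr1. The log2 fold change was 1.24 with a standard error of 0.32 (adjusted p = 0.0293), and the call was lost without normal liver 2 or 3 or tumor 2 or 3, with adjusted p up to 0.0906. Tlr1 and Tlr6 are close paralogs, and how far each probe reads the other's transcript was not tested.

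Tlr2 had 0.727, 0.542 and 0.800 in normal liver and 1.33, 0.756 and 1.23 in tumor. Tumor 2 fell among the normal livers. At 0.66 on the log2 scale it was not called (adjusted p = 0.0950), although without tumor 2 it was 0.91 (adjusted p = 0.0294).

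Tlr9, which recognises unmethylated CpG DNA in endosomes, had 54.9, 50.3 and 49.6 in normal liver and 32.9, 33.9 and 36.6 in tumor. All tumors lay below all normal livers, with a narrow spread in each group. The log2 fold change was -0.58 with a standard error of 0.11 (adjusted p = 0.00925), and under spike-in scaling it was -0.41 and not called. Tlr7, a sensor of single-stranded RNA, had 1.83, 1.97 and 1.54 against 1.12, 1.16 and 1.06, a log2 fold change of -0.67 (adjusted p = 0.0107) that was -0.49 and not called under spike-in scaling.

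Tlr5 had 0.229, 0.256 and 0.175 in normal liver, and 0.0254, 0.0646 and 0.0457 in tumor, where it stayed at background throughout. Measured means were 0.220 ± 0.0410 and 0.0452 ± 0.0196 (SD, n = 3 each). By the processed signal Tlr5 was at least 2.04-fold lower in tumor, or 1.03 on the log2 scale. The limma fit to the measured values called Tlr5 lower (adjusted p = 0.00453). After normexp its log2 fold change was -0.67, a smaller fall than the bound. Tlr3 and Tlr8, sensors of double-stranded and single-stranded RNA, stayed at background in all 6 samples and were not tested.

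**Figure D2:**
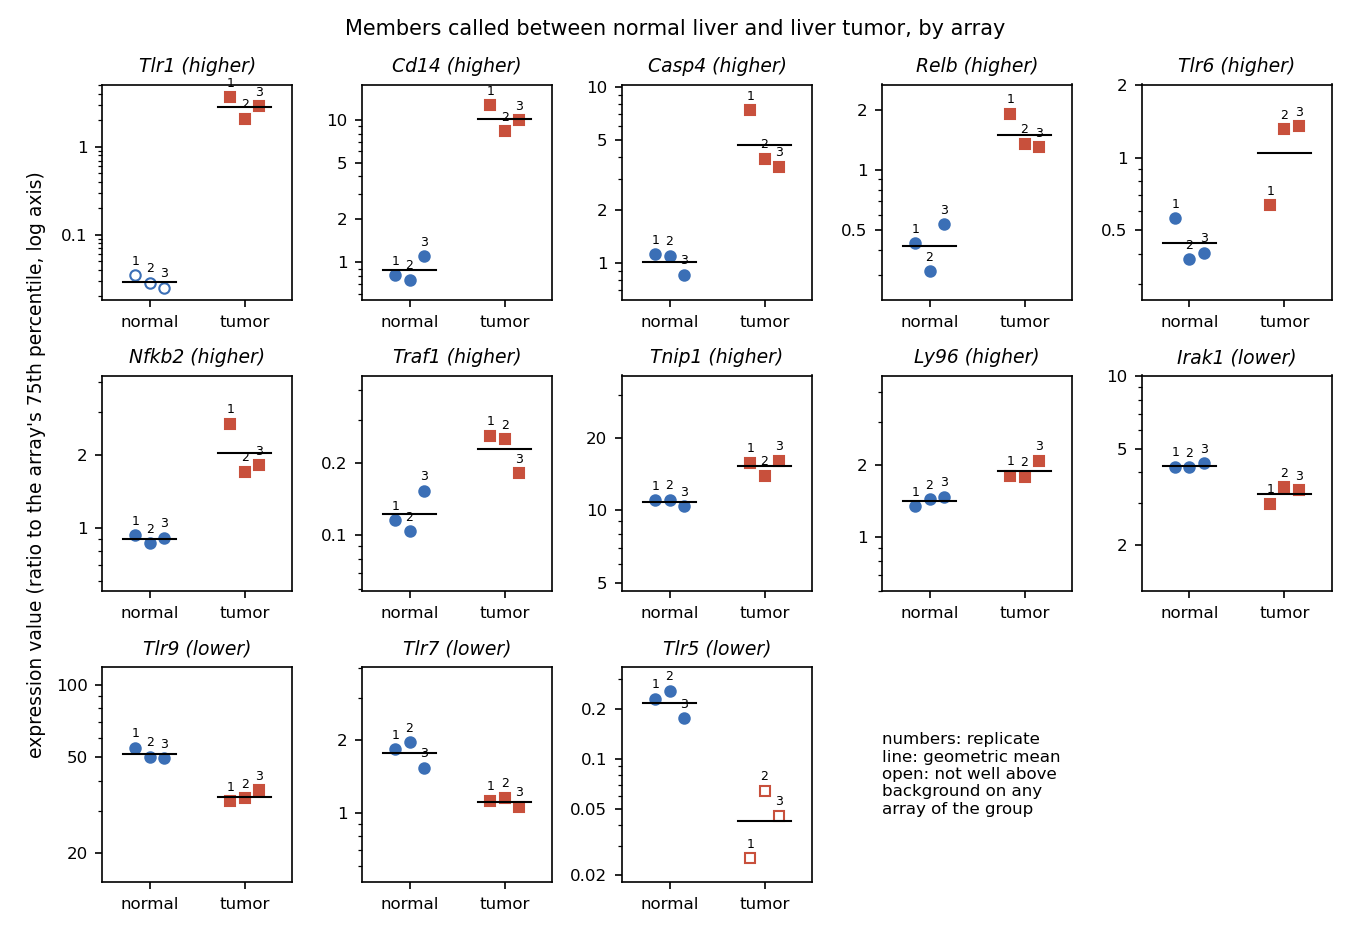
Expression value of each of the 13 called genes on each array (ratio to the array's 75th percentile, log axes that differ between panels), with normal liver as blue circles, liver tumor as red squares, replicate numbers above the points and a line at the geometric mean; open points mark a group in which no array was well above background. Cd14 goes from at most 1.10 in normal liver to at least 8.35 in tumor, while Tlr6, Traf1, Ly96 and Irak1 have narrow gaps.

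Signal transducers behind the receptors were called in 1 case of 5 tested, Irak1, which was lower (20%, near the 21% of all genes tested). Myd88, the adaptor shared by most Toll-like receptors, had 2.51, 2.47 and 3.08 in normal liver and 2.51, 2.13 and 2.64 in tumor. Its groups overlapped, and the log2 fold change was -0.14 (adjusted p = 0.479), turning above 0 under spike-in scaling. Ticam1, or TRIF, the adaptor of Tlr3 and of endosomal Tlr4, gave 0.28 (adjusted p = 0.437).

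Irak1, a kinase recruited to Myd88, had 4.22, 4.21 and 4.37 in normal liver and 2.96, 3.48 and 3.37 in tumor. The groups were apart, with a log2 fold change of -0.39 (adjusted p = 0.0379). Its other 2 probes gave -0.17 (adjusted p = 0.312) and -0.11 (adjusted p = 0.587), and the call was lost with any array left out and under quantile, normexp and spike-in settings. Irak2, a relative of Irak1, had 21.0 to 23.4 against 15.9 to 18.4, without overlap, and -0.35 on the log2 scale (adjusted p = 0.0547). Irak4, the kinase upstream of Irak1, gave 0.54 (adjusted p = 0.282) and 0.05 after normexp, and was well above background in only 2 normal livers. Irak3, a negative regulator, was well above background in 1 normal liver only and was not tested.

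No NOD receptor or RIP kinase was called among the 3 tested, while 34.1% of all genes tested were. Nod1, a cytoplasmic sensor of peptidoglycan fragments, had 5.52, 4.95 and 4.43 in normal liver and 3.84, 3.95 and 3.69 in tumor. These groups did not overlap, and the log2 fold change was -0.37 (adjusted p = 0.0557). Ripk1, the kinase at the TNF receptor, gave -0.35 (adjusted p = 0.156) and Ripk3, the kinase of necroptosis, gave -0.22 (adjusted p = 0.423). Nod2 and its partner kinase Ripk2 stayed at background on every array.

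Among 5 inflammasome parts, Casp4 rose and the other 3 tested did not pass the test. That was 25% of the 4 tested, against 13.1% of all genes tested. Casp4, the mouse caspase-11, senses cytoplasmic lipopolysaccharide and cleaves gasdermin D. Its expression value was 1.12, 1.10 and 0.861 in normal liver and 7.36, 3.91 and 3.52 in tumor. Every tumor was above every normal liver, with tumor 1 well above the others. The means were 1.03 ± 0.145 and 4.93 ± 2.12 (SD, n = 3 each) and the log2 fold change was 2.19 with a standard error of 0.29 (limma, adjusted p = 0.00345), or 4.57-fold. A second probe gave 2.37 (adjusted p = 0.00262).

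Casp1, which matures interleukin 1 beta, lies beside Casp4, at chr9:5298517-5307281 against chr9:5308849-5336791 in GRCm38.p6. It had 1.41, 1.36 and 1.84 in normal liver and 2.94, 1.81 and 2.62 in tumor. Tumor 2 lay just below normal liver 3, and the log2 fold change of 0.66 was not called (adjusted p = 0.0588). It was called without tumor 2, at 0.86 (adjusted p = 0.0252), and under spike-in scaling.

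Pycard, or ASC, the adaptor that gathers Casp1, stayed between 1.05 and 1.25 on all arrays, with a log2 fold change of -0.07 (adjusted p = 0.677) that turned above 0 under spike-in scaling. Gsdmd, which encodes the pore-forming gasdermin D, had 7.58 to 8.29 in normal liver and 5.10 to 7.65 in tumor. The overlap came from tumor 3, and the log2 fold change of -0.41 (adjusted p = 0.113) was called without it, at -0.59 (adjusted p = 0.0196). The sensor Nlrp3 stayed at background on every array.

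The promoter of Casp4, which had the steepest rise among the genes with a match in their window, is shown from chr9:5308599-5308848 on the plus strand of GRCm38.p6.
Casp4: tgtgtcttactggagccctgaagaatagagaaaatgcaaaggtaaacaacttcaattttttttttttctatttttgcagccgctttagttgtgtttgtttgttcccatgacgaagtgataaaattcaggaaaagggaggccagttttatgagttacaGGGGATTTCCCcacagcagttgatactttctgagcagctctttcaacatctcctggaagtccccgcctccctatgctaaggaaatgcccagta
The capitals begin 93 bases before the start and hold overlapping matches on both strands.

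RefSeq promoters, each from 250 bases before an annotated start to 50 after it, were at hand for 34 of the 43 genes, and not for Nfkb1, Relb, Nfkbiz, Tlr4, Tlr7, Ripk2, Gsdmd, Cd14 and Ly96. The kappaB consensus was searched on both strands and matches were allowed to overlap. It occurred in 11 of the 34 (32.4%), against 1388 of all 27025 genes with a promoter (5.14%). Among genes called higher it occurred in 3 of 6, namely Nfkb2, Casp4 and Tnip1. Among those called lower it occurred in 0 of 3. Matches also stood in the windows of 5 of 19 genes tested and not called (Tlr2, Bcl3, Tnfaip3, Nfkbia and Nfkbie) and 3 of 6 too dim to test (Tlr3, Rel and Nlrp3). A match describes letters in this window and does not show binding.

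**Figure D3:**
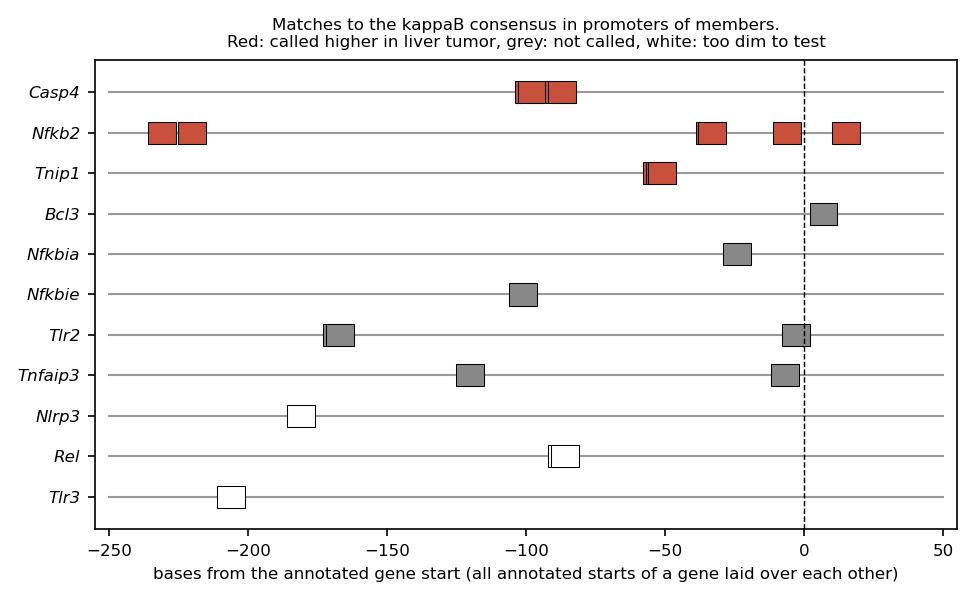
Position of matches to the kappaB consensus (boxes 10 bases wide) in promoters of the 11 genes that hold one, in bases from the annotated gene start (dashed line at 0), with all annotated starts of a gene laid over each other. Red boxes belong to the 3 genes called higher, grey to the 5 not called and white to the 3 too dim to test.

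Tumor 1 gave the highest tumor value for 6 of the 9 genes called higher (Nfkb2, Relb, Traf1, Tlr1, Cd14 and Casp4) and tumor 3 for the other 3, tumor 2 for none. Of the 23 genes not called, tumor 2 was the lowest tumor for 14. The order of the tumors was not counted over all genes tested, so these counts cannot be called particular to this set. With each array left out in turn, 8 of the 13 called genes were called every time: Nfkb2, Relb, Tlr1, Cd14, Casp4, Tlr5, Tlr7 and Tlr9. The methods ask for a change of at least 2-fold and a group mean above 1.0, and name a paired test at p under 0.05. Since nothing ties same-numbered samples to one mouse, the methods' t-test was run here without pairing, and with it Casp4, Cd14, Nfkb2, Relb and Tlr1 were higher, 5 of 36 against 4.67% of all genes. In the lower direction these criteria took 0 of 36, against 4.47% of all genes. In that direction 7 had an unadjusted p under 0.05 in the unpaired test, against 27.2% of all genes, and limma called 4.

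**Figure D4:**
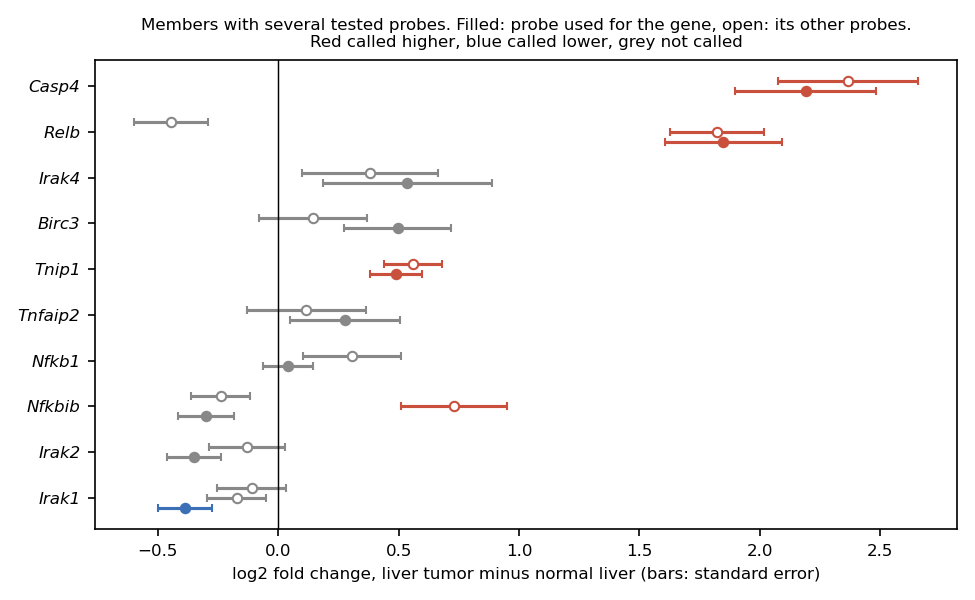
Log2 fold change (liver tumor minus normal liver, bars of 1 standard error) of every tested probe of the 10 genes that have more than 1, with the probe used for the gene filled and its others open; red was called higher, blue lower and grey not called. Relb and Nfkbib are the 2 genes whose probes lie on both sides of 0.

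A further 45 genes of the same pathways were looked at, of which 39 were tested, 6 rose and 10 fell, or 15.4% and 25.6%, near the 13.1% and 21% of all genes tested, with a median log2 fold change of -0.23 against -0.13. On the way from receptor to IkB kinase, 3 of 21 tested rose (14.3%) and 5 fell (23.8%), near the shares of all genes tested. The risers were the TNF receptor Tnfrsf1a (0.81, adjusted p = 0.00518) and the adaptors Traf5 (0.69, adjusted p = 0.00689) and Traf3 (0.52, adjusted p = 0.0125). The steepest falls were those of the receptor Tlr12 (-1.19, adjusted p = 0.0359), of Lbp, the plasma protein that delivers lipopolysaccharide to Cd14 (-1.14, adjusted p = 0.00488), and of Ikbkg, the regulatory subunit of the IkB kinase (-0.91, adjusted p = 0.00540). In the same list Chuk fell (-0.47, adjusted p = 0.0248) and Map3k14 was not called (-0.02, adjusted p = 0.940).

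Lbp had 16.7, 16.5 and 15.5 in normal liver and 8.86, 5.84 and 7.78 in tumor, so that it fell where Cd14 rose. Among brakes on the pathway, 1 of 9 tested rose, Sigirr, an inhibitory receptor of the same superfamily (0.53, adjusted p = 0.0210), and 3 fell: Otulin, a deubiquitinase (-0.71, adjusted p = 0.0360), Tollip (-0.56, adjusted p = 0.0114) and Tank (-0.49, adjusted p = 0.0164). These were 11.1% and 33.3% of the brakes tested, against 13.1% and 21% of all genes tested. Under spike-in scaling 3 of these 45 genes were called lower rather than 10, and Otulin, Tollip, Tank, Ikbkg and Chuk were no longer called.

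Of 9 other inflammasome genes tested, 2 rose and 2 fell, 22.2% each, against 13.1% and 21% of all genes tested. Panx1, a channel that releases ATP and acts downstream of caspase-11, had 0.530, 0.464 and 0.536 in normal liver and 8.57, 4.94 and 4.14 in tumor. Its order among the tumors was that of Casp4, and the log2 fold change was 3.46 with a standard error of 0.27 (limma, adjusted p = 0.000538). Gsdme, another gasdermin, rose by 1.28 on the log2 scale (adjusted p = 0.000538). Il18, a cytokine matured by caspase-1, fell by 0.91 (adjusted p = 0.00576), and the sensor Nlrp6 fell by 0.70 (adjusted p = 0.00514). Nlrp6 was not called under spike-in scaling.

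Genes known as NF-kB targets were called higher in 8 of 14 tested (57.1%) and lower in 3 (21.4%), against 13.1% and 21% of all genes tested. Their median log2 fold change was 0.98, and another 5 were too dim to test. The list was chosen with earlier results of these data known, so that its direction is no independent evidence. Among the rises were those of Lcn2, a secreted iron-binding protein (5.29, adjusted p = 0.000685), and of Ltb, a ligand of the non-canonical route (4.20, adjusted p = 0.00218). Ltb had 0.624, 0.546 and 0.791 in normal liver and 20.1, 5.31 and 15.6 in tumor. Cd40, a TNF family receptor, was called higher as well (adjusted p = 0.00113), with a mean of 2.90 ± 0.143 in tumor (SD, n = 3), but it was well above background in only 1 normal liver, so that the size of its rise is not given. The falls were those of Sod2, mitochondrial superoxide dismutase (-1.10, adjusted p = 0.00422), Saa3, an acute-phase protein (-0.90, adjusted p = 0.0315), and Csf1, the macrophage growth factor (-0.64, adjusted p = 0.0416). Tnf, Il6, Ptgs2, Cxcl2 and Ccl20 stayed at background on every array.

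**Figure D5:**
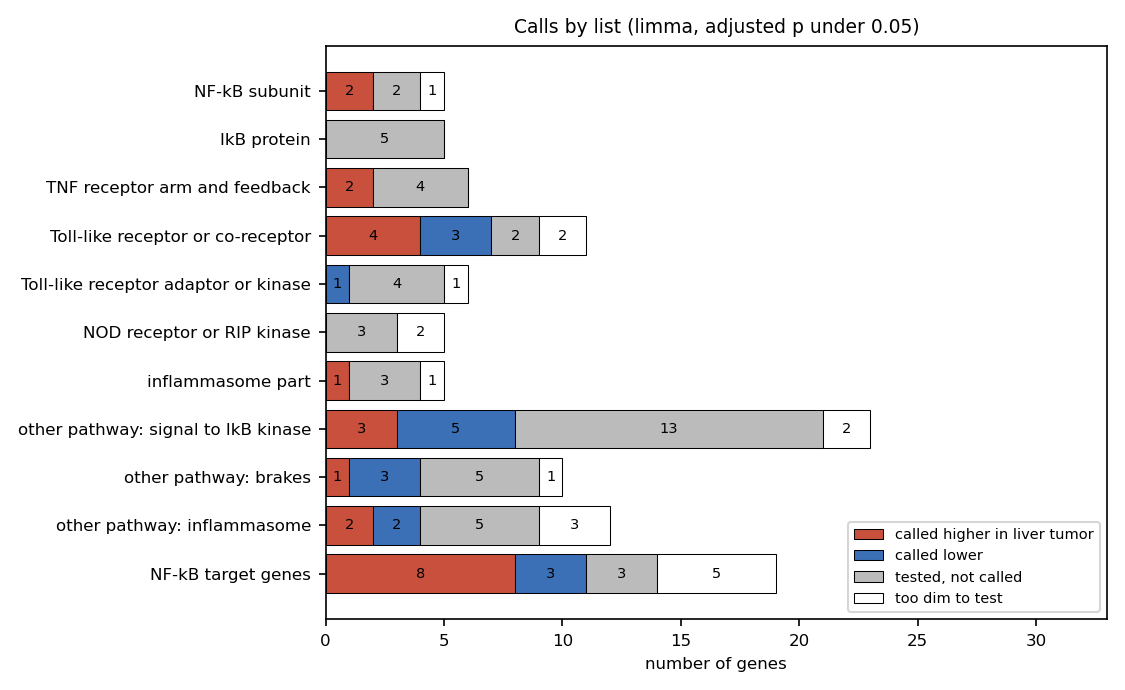
Number of genes in each list called higher in liver tumor (red), called lower (blue), tested and not called (grey) or too dim to test (white), by limma with an adjusted p under 0.05. The Toll-like receptors and co-receptors hold 4 higher and 3 lower, the IkB proteins none, and the NF-kB targets 8 higher and 3 lower.

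Markers of cells that carry these genes moved too. Of 12 markers of Kupffer cells and macrophages, 11 were tested, 7 fell (63.6%) and 1 rose (9.09%), against 21% and 13.1% of all genes tested. The summed expression value of the 12 was 135 to 212 in normal liver and 101 to 151 in tumor. The defining Kupffer cell markers Clec4f (-1.84, adjusted p = 0.0102), Timd4 (-1.65, adjusted p = 0.00886) and Vsig4 (-1.27, adjusted p = 0.00368) fell and Mpeg1 rose by 1.46 (adjusted p = 0.00793), while Cd14 and Tlr1 rose and Tlr7 and Tlr9 fell. Their part in these results was not tested.

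Of 8 neutrophil markers, 5 were tested and none was called by limma, Mpo stayed at background on every array, and the sum was 149.7 to 171 in normal liver and 133 to 184 in tumor, most of it Csf3r. The tested markers did not share an order among the tumors. S100a9 was highest in tumor 1, at 12.9 against 4.51 and 2.81 in the others, as were S100a8 and Elane. Csf3r was highest in tumor 2 and Ly6g in tumor 3. Of 10 lymphocyte markers, 5 were tested and Cd4 alone rose, by 1.59 on the log2 scale (adjusted p = 0.00320), which carried the sum from 70.5 to 74.5 in normal liver to 145 to 249 in tumor, while Cd8a stayed at background on every array and Cd3e gave 0.03 (adjusted p = 0.904). Endothelial markers summed to 108 to 122 in normal liver and 84.6 to 93.6 in tumor, with Stab2 and Clec4g lower among 8 tested. Of 10 hepatocyte markers 1 rose and 5 fell, of 8 stellate cell and fibroblast markers 2 rose and 4 fell, and of 7 cholangiocyte markers 5 were tested and none was called. Over all genes tested 13.1% were called higher and 21% lower. The part of these cells in the results was not tested either.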

How the data were processed

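Total RNA of 3 normal livers and 3 liver tumors was hybridised to 1-colour arrays. The authors deposited for each array the Feature Extraction output (version 10.7.3.1 per the file headers), of which the processed signal intensity, background subtracted and detrended, was used. They also deposited a table of ratios of this signal to the array's 75th percentile, which equalled the ratio computed here and served as an alternative.

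The log2 processed signal minus the log2 75th percentile of all spots was computed, control and outlier spots were left out, spots of a probe were averaged, and the 24901 of 55681 probes that were well above background throughout at least 1 group were tested with limma 3.58.1 (lmFit, eBayes, two-sided, Benjamini-Hochberg over all of them, threshold 0.05) in R 4.3.3. The t-tests were computed in R as well. Tables and figures used Python 3.11.15 with matplotlib 3.10.9, numpy 2.4.6 and pandas 2.3.3. Where a gene had several probes, the one brightest on average over the arrays stood for it. Names came from RefSeq (GRCm38.p6) by accession for 27229 probes, symbol for 3586 and synonym for 565, and 24301 kept the design's name. A bound sets the brighter group's mean against a floor averaged over the dim group's arrays, on each of which it is the larger of the probe's signal and the smallest signal that any probe well above background had.

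All 43 genes are named, and of each other pathway and target list the 3 called genes that rose most and the 3 that fell most. Of the markers, defining or abundant ones are named. Lbp and single markers were described further, and Chuk and Map3k14 were named, after their values were seen. The genes and lists were chosen with earlier results of these data known. The number of arrays limits precision. The fit was tested on simulated data. Alternatives were quantile normalization, spike-in scaling, normexp with an offset of 50, the table of ratios, no filter and a stricter filter, eBayes with trend, the methods' t-test unpaired and paired, the replicate block, the mean of a gene's probes and each array left out.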

Additional observations from a re-analysis of the deposited data

How the results depend on the processing

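With each array left out, 5 to 10 of the 43 genes were called higher (9 with all arrays, 5 without normal liver 2 and 6 without normal liver 3) and 3 to 4 lower (4), and of the other pathway genes 5 to 6 were higher (6) and 5 to 9 lower (10, with 5 without normal liver 2 and 6 without tumor 2). Without a filter on dim probes, which tests 55681 probes, 5 of the genes were higher and 1 lower, and 4 other pathway genes were lower. Spike-in scaling left 1 gene and 3 other pathway genes lower. Over all probes it gave 3173 higher and 1952 lower (61.9% of calls higher) in place of 3112 and 5127 (37.8%). The 75th percentile of the processed signal was 124 on normal liver 1 and 170 to 183 on the other arrays. Before scaling, the spike-in controls differed between the groups by a median of 0.02 on the log2 scale. The cause of the shift in calls was not tested. Quantile normalization gave 46.8%. Over all probes the lower calls numbered 2608 to 4367 with an array left out and 2603 without a filter, where 2071 were higher. The methods' t-test without pairing called 5 of the genes higher after Benjamini-Hochberg adjustment (Cd14, Ly96, Relb, Tlr1 and Tnip1) and 5 lower, and 1739 probes higher and 3522 lower. It no longer called Casp4, Nfkb2, Tlr6 and Traf1, although Casp4 and Nfkb2 had met the methods' criteria without adjustment. Its paired form called 0 higher and 0 lower, also of the other pathway genes and over all probes, with an unadjusted p under 0.05 for 5 genes higher and 5 lower; limma called 9 and 4. With the replicate number as a block, limma called 7 of the genes higher and 4 lower, 6 other pathway genes higher and 8 lower. Deviations of same-numbered samples correlated at 0.07, 0.13 and 0.05. Normal livers 1 and 2 correlated best with the tumor of the same number. Normal liver 3 correlated at 0.0541 with tumor 1 and at 0.0506 with tumor 3. Correlations this small cannot settle whether the numbers pair the samples. The main fit was left unpaired because the labels do not tie same-numbered samples to one mouse. No tested value of a called gene turned its sign under these settings. Signal near background limits the values of dim genes: the log2 fold change of Tlr1 was 3.04 and that of Tlr5 -0.67 after normexp, which still called both. These changes are smaller than the bounds given for Tlr1 and Tlr5, which hold for the processed signal only.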
